A study of Mus musculus with 21 samples.

Results

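The glomeruli of mice that lack Epac1 in podocytes were compared with those of control littermates in established glomerulonephritis, 11 days into the disease. The comparison took 4 cKO libraries against 4 flox libraries, chosen by genotype, serum and day, out of 21 libraries in all. Mice of the cKO group were homozygous for a floxed Epac1 allele (Epac1fl/fl) and carried a Cre recombinase directed to podocytes. Mice of the flox group were Epac1fl/fl littermates without Cre, so the floxed allele was shared by every animal. All mice were females aged 3 months. The day 11 mice received decomplemented nephrotoxic serum into a vein on 2 consecutive days. Matching cKO and flox groups were taken at day 4 after serum (4 and 3 libraries) or after PBS without serum (3 and 3 libraries). Glomeruli were cut from frozen kidney sections by laser microdissection, 1 library per mouse, and sequenced from the 3′ end of transcripts. The study asked what podocyte Epac1 does as glomerulonephritis progresses.

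Epac1, the product of Rapgef3, is a cyclic AMP sensor that loads GTP onto the small GTPases Rap1 and Rap2, and it acts beside protein kinase A. Podocytes wrap the glomerular capillaries with foot processes joined by slit diaphragms, and Rap signalling is known to act on integrin adhesion and on the cytoskeleton that holds this shape. Nephrotoxic serum contains antibodies against the glomerulus. The injury it causes brings leukocytes, proliferating parietal epithelial cells, matrix deposition and loss of podocyte function. A glomerulus holds podocytes, endothelial, mesangial and parietal cells together, so a deletion in podocytes was read through the RNA of all of them. In such samples fewer cells of a type and less RNA per cell cannot be told apart.

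Markers of the glomerulus were present in all 8 libraries. In reads scaled to library size (CPM), the podocyte gene Synpo ran from 740.2 to 1762 in cKO and from 1035 to 1323 in flox, and the glomerular endothelial gene Ehd3 from 1103 to 2268 in cKO and from 1656 to 2224 in flox. The mesangial gene Serpine2 ran from 666.3 to 1174 CPM in cKO and from 666.3 to 1024 CPM in flox. Parietal markers were low, and Cldn1 had 0 reads in flox replicate 1. Tubule was also present: Slc34a1, a proximal tubule phosphate transporter, ran from 381.5 to 602.8 CPM in cKO and from 41.6 to 817.6 CPM in flox.

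The libraries held from 4550550 to 17200905 reads in cKO and from 13421591 to 21049090 reads in flox, a difference with an exact two-sided permutation p of 0.171 (the smallest that 4 against 4 allows is 0.0286). The smallest was cKO replicate 3. The ribosomal RNA gene CT010467.1 took from 22.2% to 39.5% of the reads in cKO and from 15.4% to 30.1% in flox (exact permutation p = 0.143). Mitochondrially encoded genes took from 3.52% to 4.55% in cKO and from 2.32% to 7.21% in flox (exact permutation p = 0.229).

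Flox replicate 1 stood apart from the other 3 flox libraries of day 11 in some gene lists. The mean log2 CPM of the cell cycle list was 0.78 in it, against 3.31 to 3.51 in the other 3, and it lay from 2.42 to 3.55 in cKO and from −0.22 to 0.27 in flox PBS. For interstitial matrix it was 4.62 in that library, against 6.02 to 6.14 in the others, and it lay from 5.53 to 6.78 in cKO and from 3.77 to 3.84 in flox PBS. For parietal cell genes it was 2.19, below the 4.32 to 4.98 of the others and within the 1.18 to 2.89 of flox PBS. The library also had the fewest genes with a read of the 8 (9937) and 1.53% haemoglobin reads, against 0.16% to 0.199% in the other 3 flox and 0.05% to 0.194% in cKO. Summed CPM, which the abundant members dominate, differed by list. For cell cycle genes the sum was 1334 in it, against 1690 to 3034 in the other flox libraries and 633.8 to 1417 in flox PBS, and for parietal genes it was 864.8, against 986.8 to 1581 in the others and 720.6 to 1091 in flox PBS. For matrix the sum was 13430, closer to the 14130 to 17990 of the others than to the 8978 to 11590 of flox PBS. The library lay among the other day 11 libraries for actin genes, with a sum of 25920 against 24270 to 29270 in the others and 15160 to 18260 in flox PBS. The same was seen for S100 and annexin genes (3230, against 2665 to 3659 and 1974 to 2618) and basement membrane genes (5026, against 4614 to 5343 and 3246 to 4238). Results that rest on this library are given with and without it.

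**Figure D1:**
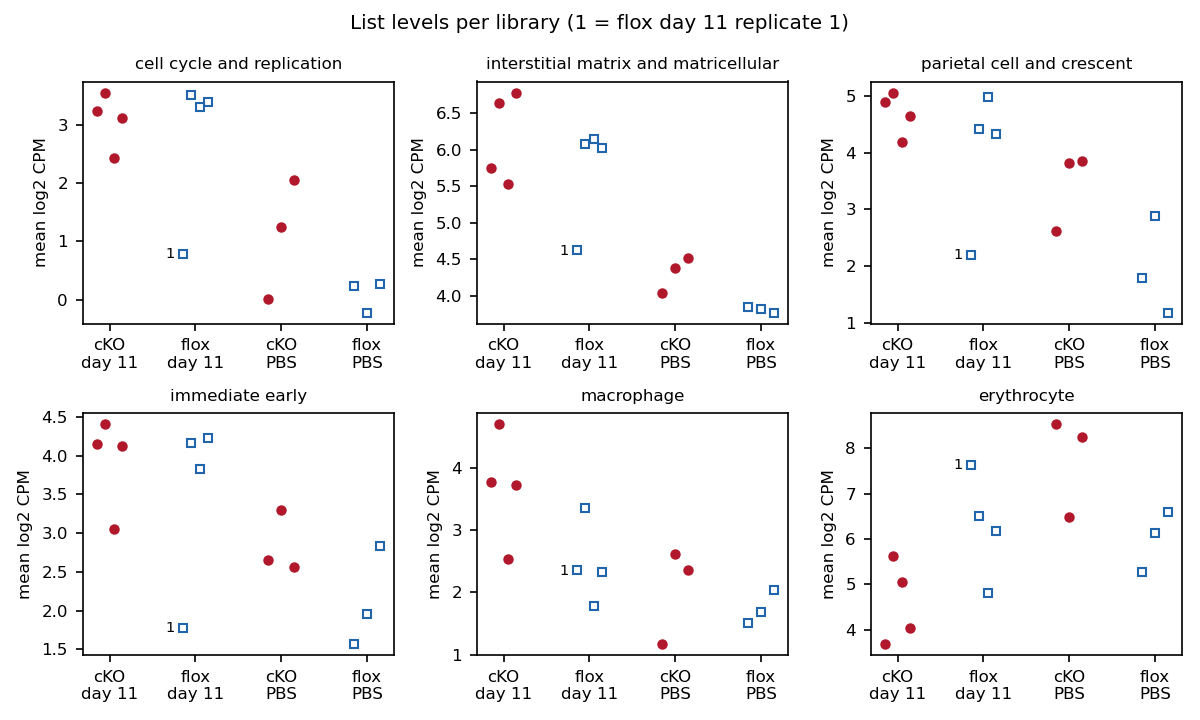
Mean log2 CPM of the tested members of 6 gene lists in each library of cKO day 11, flox day 11, cKO PBS and flox PBS (1 point per library; filled, cKO; open, flox). Flox day 11 replicate 1, marked 1, lies near the PBS libraries for cell cycle (0.78), matrix (4.62) and parietal genes (2.19).

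The targeted gene was examined before all others. Rapgef3 (ENSMUSG00000022469.17) lies on chromosome 15 of GRCm38, minus strand, from 97744770 to 97767972. It had 199.5, 170.3, 139.0 and 198.7 CPM in the cKO libraries, against 131.2, 134.8, 205.4 and 346.6 CPM in the flox libraries. The groups overlapped, with flox replicates 3 and 4 above every cKO library and flox replicates 1 and 2 below every one. The log2 ratio, cKO over flox, came to −0.21 ± 0.40 (SE; 95% interval −1.02 to 0.60; adjusted p = 1 by edgeR's quasi-likelihood test with Benjamini-Hochberg adjustment, as for each adjusted p below), and it was 0.17 without flox replicate 4. The deletion cannot be checked in this way, because the sequenced 3′ ends need not fall in the floxed exons and non-podocyte cells of the glomerulus can retain Rapgef3. Under PBS the same contrast was −1.16 ± 0.46 (adjusted p = 0.726), and the difference between the stages was not called (0.95 ± 0.61, adjusted p = 0.907).

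Rapgef4, which encodes the related exchange factor Epac2, had 41.5, 52.2, 112.8 and 58.6 CPM in cKO against 103.9, 65.4, 65.3 and 44.2 CPM in flox. The groups overlapped throughout, and the log2 fold change was −0.07 ± 1.01 (SE). Of 17 genes of Epac, Rap and cyclic AMP signalling with a mean of at least 50 CPM, 9 were higher and 8 lower in cKO (median log2 fold change 0.02). The widest were Pde4b, a cyclic AMP phosphodiesterase, at −1.06 ± 0.77 and Prkacb, a catalytic subunit of protein kinase A, at 0.62 ± 0.48 (SE, neither called).

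Nipal1, of a family of magnesium transporters, gave the largest log2 fold change among genes with a mean of at least 50 CPM. It had 97.2, 25.3, 285.2 and 97.0 CPM in cKO, against 0.13, 1.78, 0.417 and 0.403 CPM in flox. Every cKO library lay far above every flox library. The log2 fold change was 7.50 ± 1.44 (SE; 95% interval 4.56 to 10.44), the smallest adjusted p of the comparison, yet 0.162 and so not called. The gene (ENSMUSG00000067219.9) lies on GRCm38 chromosome 5 from 72647795 to 72671078 on the plus strand. It was likewise high in cKO without serum, at 220.6, 144.7 and 88.02 CPM against 0.211, 0.497 and 0.334 CPM in flox PBS, where 5.82% of genes at 50 CPM or more were separated in this direction. The day 11 difference minus that under PBS was −1.24 ± 1.69 (SE, adjusted p = 1, not called). At day 4 the cKO libraries had 127.2, 22.5, 0.154 and 126.2 CPM, against 2.92, 2.96 and 0.0587 CPM in flox, and there cKO replicate 3 lay within the flox range.

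Prm1, a sperm protamine gene below 50 CPM, had 7.57, 0.385, 2.69 and 13.2 CPM in cKO and 0 reads in each flox library. The cKO libraries held 266 reads together. Against a floor of 3 reads over the flox group, Prm1 was at least 140.0-fold higher in cKO (log2 7.13), a bound that covers counting error only, and its adjusted p was 0.839. It also had reads in all 7 cKO libraries of the PBS and day 4 groups, from 1.43 to 64.8 CPM, and in 0 of the 6 flox libraries.

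**Figure D2:**
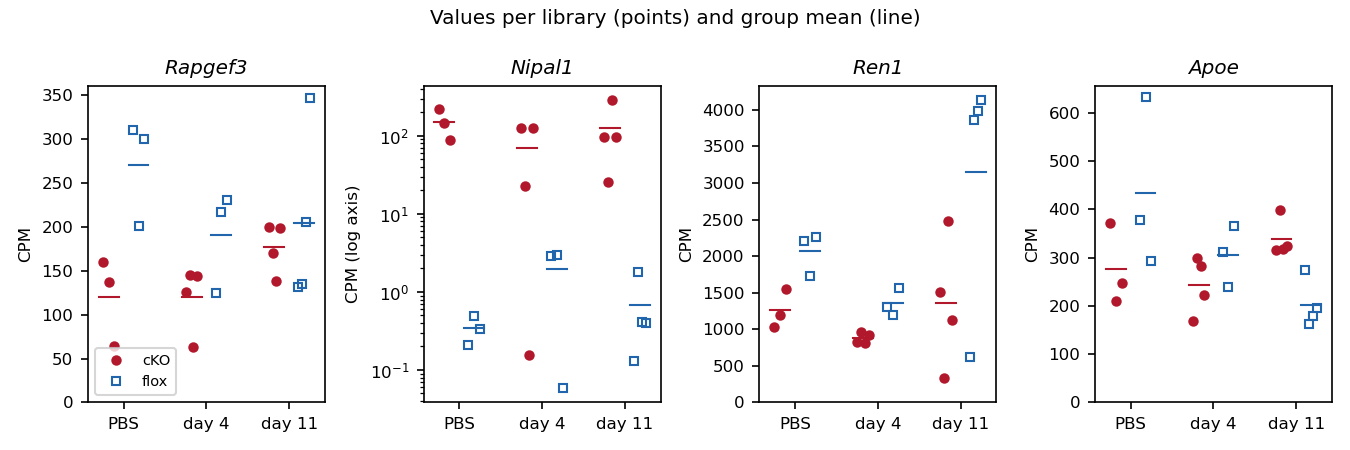
CPM of 4 genes in each library at PBS, day 4 and day 11 (points; filled, cKO; open, flox) with the group mean as a line; the Nipal1 axis is logarithmic. Nipal1 is high in cKO at every stage save 1 library of day 4, and Ren1 is lower in cKO with 1 low flox library at day 11 (620.1 CPM).

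Across the genome, edgeR called 0 of 13898 genes (0.0%) between cKO and flox at day 11. The unadjusted p was under 0.05 for 815 genes (5.86%). DESeq2 called 495 and limma's voom method 11. Of the DESeq2 calls, 454 (91.7%) were genes with 0 reads in one of the day 11 groups. The description therefore rests on the 3451 genes with a mean of at least 50 CPM over the 8 libraries. Among these the median standard error of the log2 fold change was 0.64, against 2.38 for the 10447 tested genes below that level. For 523 of them (15.2%) the 95% interval lay wholly within −1 to 1, which excludes a doubling or halving. Above 500 CPM this held for 136 of 173 genes. At most levels, then, differences of up to 2-fold were not detectable at this number of mice.

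Of the 3451 genes, 33 were higher (0.956%) and 39 lower (1.13%) in cKO at an unadjusted p under 0.05, 2.09% together. In 47 genes (1.36%) every cKO library was above every flox library, and in 59 (1.71%) every cKO library was below, 106 (3.07%) together. With any 1 library left out this number was 167 to 264. The log2 fold change was above 0 in 46.8% of them, with a median of −0.03. These shares are the background for the gene groups below. edgeR called none of the genes named from here on with all 8 libraries, so their values are a description. DESeq2 called Stk40, Phf5a, Tsc22d3 and Gstt2 among them.

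**Figure D3:**
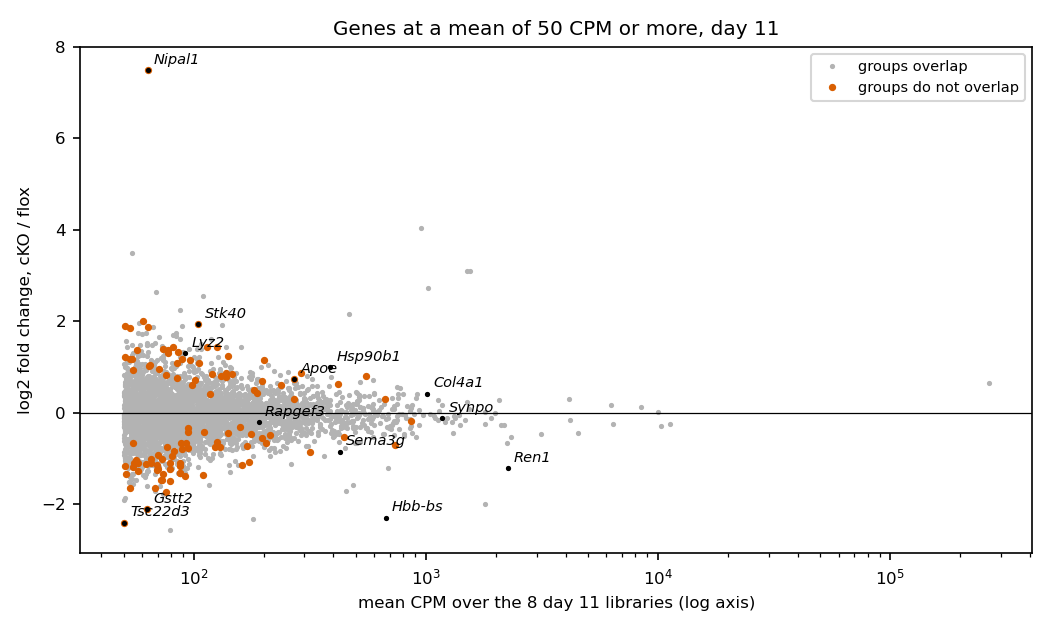
Log2 fold change of cKO over flox at day 11 against the mean CPM of the 8 libraries (log axis) for 3451 genes; orange points are the 106 genes whose groups do not overlap, and black points are named genes. Nipal1 stands alone at 7.50, and the spread of fold changes narrows as the level rises.

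Stk40, a pseudokinase, was among the genes without overlap that were higher in cKO. It had 89.02, 159.8, 142.2 and 274.7 CPM in cKO against 31.6, 48.0, 44.2 and 48.7 CPM in flox. The lowest cKO library was above the highest flox library, and the log2 fold change was 1.95 ± 0.57 (SE, adjusted p = 0.839). Phf5a, a subunit of the SF3b splicing complex, had 194.6, 253.0, 183.8 and 108.2 CPM in cKO against 52.8, 99.1, 45.1 and 76.5 CPM in flox, with a log2 fold change of 1.44 ± 0.46 (SE). Dstyk, a kinase studied in kidney development, had 116.9, 236.9, 119.6 and 193.3 CPM in cKO against 58.3, 56.3, 91.0 and 38.6 CPM in flox. It was at 1.45 ± 0.57, and it was also higher in cKO at day 4 (1.59 ± 0.64, SE, adjusted p = 0.661).

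The other named genes of this kind ran from 1.37 to 2.01. They were Srpk2, a kinase of splicing factors, Upf2, of nonsense-mediated decay, and Cabin1, a calcineurin inhibitor. With them stood Cyp1b1, a cytochrome P450 that acts on oestrogens and retinoids, Nectin3, an adhesion protein, Rhbdf1, an inactive rhomboid protein, Pygb, a glycogen phosphorylase, and Aplp1, a relative of the amyloid precursor protein. Of these 8, Cabin1 (1.85 ± 0.81, SE) was the one at an unadjusted p under 0.05 in the edgeR test. Its cKO replicate 3 at 171.3 CPM stood far above the other 3 cKO libraries, from 49.8 to 56.0.

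Tsc22d3, which encodes the glucocorticoid-induced leucine zipper protein, had the most negative log2 fold change of the genes without overlap. It had 30.3, 13.1, 2.46 and 17.9 CPM in cKO, against 62.4, 34.1, 109.6 and 131.4 CPM in flox. The highest cKO library lay just below the lowest flox library, and the log2 fold change was −2.40 ± 0.74 (SE; 95% interval −3.91 to −0.89; adjusted p = 0.839). The contrast was −1.26 ± 0.82 under PBS and 0.54 ± 0.77 at day 4. The day 11 contrast minus that under PBS was −1.14 ± 1.08 (SE, adjusted p = 1), and minus that at day 4 it was −2.94 ± 1.07 (SE, adjusted p = 0.634).

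Gstt2, a glutathione transferase, had 29.9, 25.6, 10.1 and 29.5 CPM in cKO against 174.6, 72.0, 88.05 and 74.6 CPM in flox. The groups were well separated, the log2 fold change was −2.10 ± 0.70 (SE), and it was −1.72 without flox replicate 1. Bst2, the interferon-induced protein tetherin, had 38.2, 34.7, 30.9 and 37.6 CPM in cKO against 210.6, 131.1, 83.6 and 40.5 CPM in flox. The cKO libraries were close to each other and the flox libraries were not. The log2 fold change was −1.72 ± 0.61, and −1.27 ± 0.65 without flox replicate 1 (SE).

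The remaining 9 named genes ran from −1.64 to −1.32. Among them were Sp1, a transcription factor, Prdm2, a histone methyltransferase, and Prkcsh, the beta subunit of glucosidase II. So were the mitochondrial proteins Timm13, of protein import, and Cox20, of cytochrome oxidase assembly. Akirin1 was far lower in cKO replicate 3, at 3.58 CPM, than in the other cKO libraries, at 37.6 to 38.1 CPM. Ttc36 was also lowest there, at 2.46 CPM, but its other cKO libraries were spread, at 48.8, 33.8 and 18.6 CPM.

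**Figure D4:**
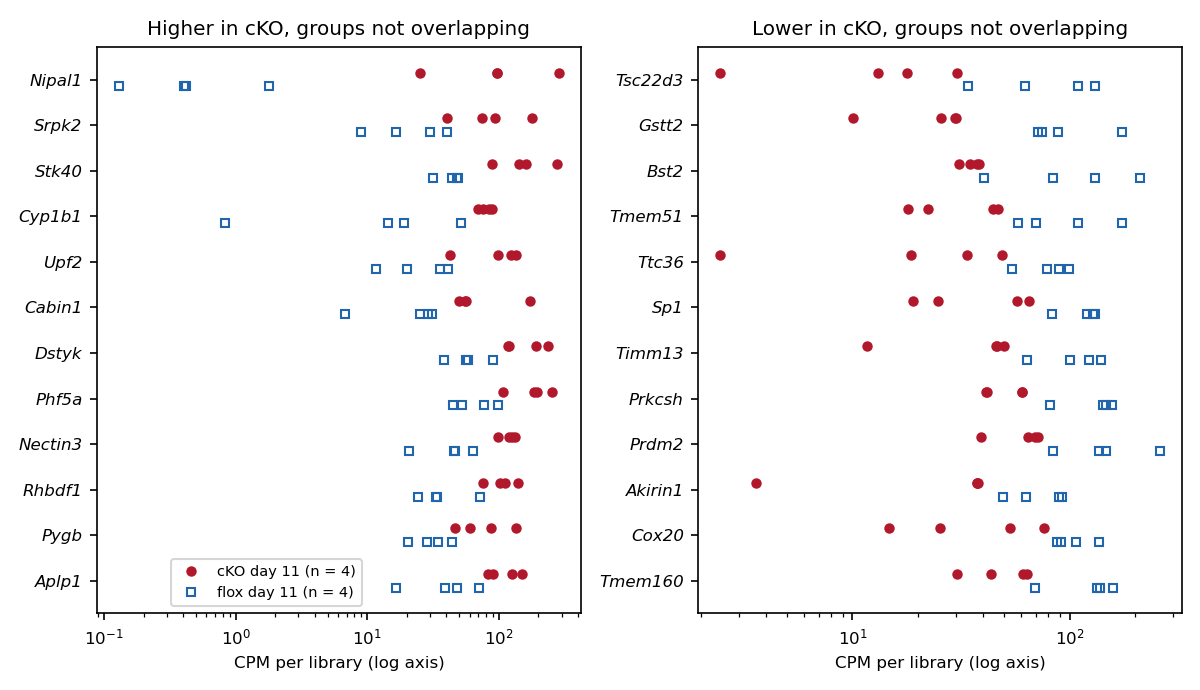
CPM per library (log axis) of the 12 genes with the largest positive and the 12 with the largest negative log2 fold change among genes whose cKO (filled) and flox (open) libraries do not overlap at day 11. Nipal1 is separated by more than an order of magnitude, and in most others the nearest libraries of the groups almost touch.

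Podocyte genes were spread around small differences. Of 24 genes of the slit diaphragm and foot process, 6 were higher and 18 lower in cKO, with a median of −0.14 (−0.03 without flox replicate 1). No member was without overlap. Nphs1, which encodes nephrin of the slit diaphragm, had 191.7, 384.6, 523.5 and 552.6 CPM in cKO against 683.4, 335.2, 606.4 and 304.2 CPM in flox. Its groups overlapped widely, and its log2 fold change was −0.22 ± 0.32 (SE). Podxl, the sialoprotein of the podocyte surface, was at −0.45 ± 0.36, Synpo, an actin-associated protein of foot processes, at −0.12 ± 0.25, and Thsd7a, a foot process membrane protein, at −0.19 ± 0.27 (SE).

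Sema3g, a semaphorin made by podocytes, was the member with the smallest p. It had 291.6, 269.6, 403.5 and 254.3 CPM in cKO, against 865.0, 510.0, 324.4 and 494.9 CPM in flox. The libraries overlapped through cKO replicate 3 and flox replicate 3, and flox replicate 1 was the highest of all. The log2 fold change was −0.85 ± 0.30 (SE; adjusted p = 0.839), and −0.54 ± 0.30 without flox replicate 1. Clic5, a chloride intracellular channel protein of foot processes, was at −0.49 ± 0.23 (SE), and −0.33 without that library.

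Of 8 podocyte transcription factors, 6 were higher and 2 lower in cKO, with a median of 0.26. Wt1, the podocyte master regulator, was at 0.55 ± 0.54 (SE). Klf6, a Krüppel-like factor, had 229.0, 247.6, 239.3 and 258.5 CPM in cKO against 114.6, 174.8, 119.4 and 190.5 CPM in flox. The groups did not overlap, and the log2 fold change was 0.70 ± 0.42 (SE). Tead1, of the Hippo pathway, was also without overlap, at 0.41, and was picked out after its values were seen.

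Of 17 glomerular endothelial genes, 7 were higher and 10 lower, with a median of −0.24. Esam, an endothelial adhesion molecule, was at −0.69 ± 0.41, and Pecam1 at −0.49 ± 0.39 (SE). Plat, the tissue plasminogen activator, was at −0.90 ± 0.82, with its 2 lowest libraries in cKO at 21.3 and 22.5 CPM.

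Ren1, the renin of juxtaglomerular cells, had the most negative log2 fold change of the mesangial and juxtaglomerular list. It had 1514, 333.5, 2474 and 1126 CPM in cKO, against 620.1, 3855, 3989 and 4135 CPM in flox. The 3 high flox libraries exceeded every cKO library, and flox replicate 1 fell among the cKO values. The log2 fold change was −1.21 ± 0.50 (SE; 95% interval −2.26 to −0.16; adjusted p = 0.839). It was −1.55 ± 0.36 without flox replicate 1 (adjusted p = 1). Without that library and cKO replicate 3 together it was −2.02 ± 0.31, the 1 gene called there (adjusted p = 0.00564). For Ren1 these were the lowest flox library (620.1 CPM) and the highest cKO library (2474 CPM). Leaving both out widens the difference by itself, so the call adds no support.

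Ren1 was then followed at the other stages, a choice made after its day 11 values were seen. Under PBS it had 1027, 1194 and 1552 CPM in cKO, against 2211, 1734 and 2256 CPM in flox. At day 4 it had 831.4, 967.9, 812.8 and 925.8 CPM in cKO, against 1307, 1191 and 1562 CPM in flox. The groups did not overlap at either stage. Of the 3451 genes, 5.01% were likewise separated and lower in cKO under PBS, and 2.78% at day 4. The log2 fold changes were −0.72 ± 0.57 under PBS and −0.61 ± 0.53 at day 4 (SE, adjusted p = 1 for each).

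The day 11 contrast of Ren1 minus that under PBS was −0.49 ± 0.75, and minus that at day 4 it was −0.60 ± 0.73 (SE, adjusted p = 1 for each, not called). Ren1 lies on GRCm38 chromosome 1 from 133350510 to 133360325 on the plus strand. Juxtaglomerular cells, its source, lie in the wall of the arteriole at the glomerular pole.

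The rest of the mesangial and juxtaglomerular list was mixed, with 9 of 15 higher, 6 lower and a median of 0.27 (0.07 without flox replicate 1). The smooth muscle genes Acta2 (0.68 ± 0.36, SE), Tagln (0.80) and Myh11 (0.43) were on the higher side. Sfrp2, a secreted Wnt modulator, was at −0.84 ± 0.36 (SE), and Itga8, the mesangial integrin, at −0.70 ± 0.49 (SE). Integrin and focal adhesion genes were 9 higher and 6 lower of 15, with a median of 0.11.

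Macrophage genes had the highest median of the lists. Of 10 members at 50 CPM or more, 7 were higher and 3 lower in cKO, with a median of 0.54 (0.33 without flox replicate 1). The summed CPM of the whole list was 1403, 2349, 1459 and 1832 in cKO, against 1231, 1084, 1363 and 810.6 in flox. These sums, which the abundant members dominate, did not overlap, though the nearest libraries were close (1403 in cKO and 1363 in flox). Among the 31 lists no other had day 11 sums without overlap. Under PBS the sums did not overlap in the other direction, at 851.5, 934.2 and 776.5 in cKO against 1332, 1183 and 1002 in flox. Other lists were separated there too, mesangial and juxtaglomerular genes lower in cKO and tubulin genes higher. By mean log2 CPM of the tested macrophage genes the groups overlapped at day 11, at 2.54 to 4.7 in cKO and 1.78 to 3.36 in flox. The same measure overlapped under PBS, at 1.17 to 2.61 in cKO and 1.5 to 2.03 in flox.

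Apoe, the lipid carrier that macrophages and mesangial cells make, had 316.9, 399.5, 317.7 and 324.3 CPM in cKO, against 274.9, 162.1, 179.4 and 195.2 CPM in flox. Every cKO library was above every flox library, which gave 0.74 ± 0.31 on the log2 scale (SE; adjusted p = 0.839). The contrast was −0.65 ± 0.35 under PBS, and the difference between the stages was 1.39 ± 0.47 (SE, adjusted p = 0.614). Lyz2, the lysozyme of myeloid cells, had 100.7, 101.8, 170.6 and 151.7 CPM in cKO against 113.4, 69.5, 12.7 and 16.2 CPM in flox. It overlapped through flox replicate 1 alone, at 1.31 ± 0.74, and 2.00 ± 0.82 without that library (SE, adjusted p = 1).

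The defining markers of this cell type were uneven across libraries. C1qa, a complement gene of tissue macrophages, was at −0.66 ± 1.27 (SE), and at 0.45 without flox replicate 3. C1qb had 0 reads in cKO replicate 3. Cd68 had 5.55, 32.0, 10.7 and 0 CPM in cKO, against 0, 5.3, 0 and 0 CPM in flox. Lymphocyte and neutrophil genes were near the limit of detection. None of the 16 lymphocyte or 11 neutrophil genes reached 50 CPM. The lymphocyte genes summed to 8.5 to 181.5 CPM in cKO and 29.1 to 73.2 CPM in flox, and the neutrophil genes to 21.8 to 134.0 CPM in cKO and 0 to 56.7 CPM in flox.

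Parietal cell and crescent genes were 4 higher and 2 lower of 6, with a median of 0.17 (0.02 without flox replicate 1). Vcam1, an adhesion molecule of activated parietal and endothelial cells, had 59.0, 176.8, 52.6 and 119.4 CPM in cKO against 36.4, 12.6, 93.7 and 38.0 CPM in flox. The groups overlapped through flox replicate 3, and the log2 fold change was 1.17 ± 0.76 (SE). Of the cell cycle genes 3 were higher and 7 lower of 10, with a median of −0.12 (−0.27 without flox replicate 1). The proliferation marker Mki67 had 0 reads in flox replicate 1 and 178.4 CPM in flox replicate 3.

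Interstitial matrix genes leaned towards cKO. Of 28, 23 were higher and 5 lower, with a median of 0.36, against 46.8% higher and a median of −0.03 over all 3451 genes. Without flox replicate 1, 20 were higher and 8 lower, with a median of 0.23. The widest were the collagen VI gene Col6a3 (1.32), fibronectin, Fn1 (1.04), the membrane protease Mmp14 (0.93) and tenascin C, Tnc (0.86). Col1a1, of collagen I, had 330.5, 1185, 690.7 and 1387 CPM in cKO against 256.9, 958.1, 563.6 and 635.7 CPM in flox. The groups overlapped widely, at 0.57 ± 0.42 (SE), and no member of the list was without overlap or at an unadjusted p under 0.05.

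Basement membrane genes were divided, 6 higher and 8 lower of 14, with a median of −0.01. Col4a1, a collagen IV chain, was at 0.42 ± 0.24 (SE). Of the genes of TGF-beta signalling 3 were higher and 6 lower of 9, with a median of −0.37 (−0.21 without flox replicate 1). Ltbp4, which binds latent TGF-beta, was without overlap at −0.80 ± 0.47 (SE). Actin genes were 16 higher and 17 lower of 33 (median −0.02), tubulin genes 6 and 5 of 11 (median 0.06), and S100 and annexin genes 9 and 2 of 11 (median 0.30).

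**Figure D5:**
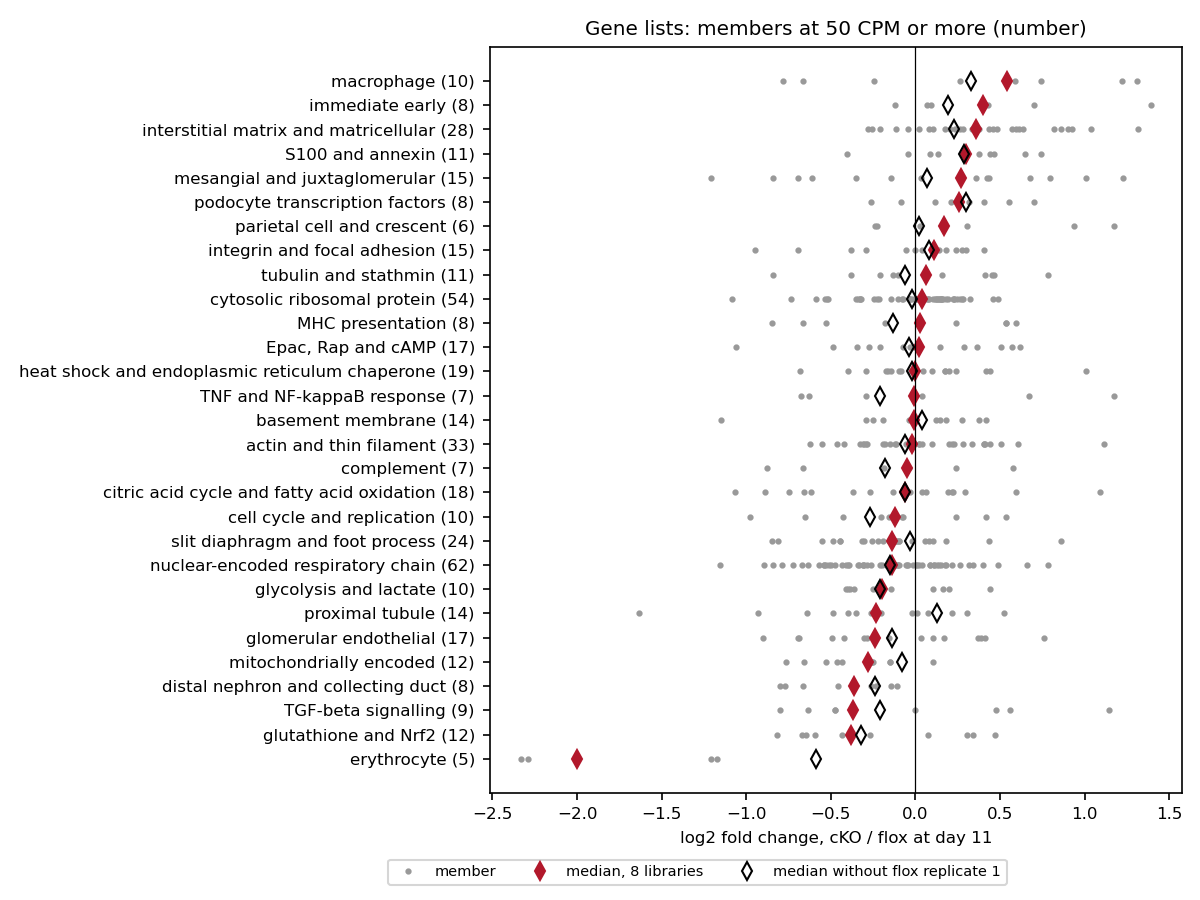
Log2 fold change of cKO over flox at day 11 for each member at 50 CPM or more of 29 gene lists (grey), with the list's median over 8 libraries (red) and without flox replicate 1 (open). Macrophage genes have the highest median (0.54), and the erythrocyte median moves to −0.59 from −2.0 when that library is left out.

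Glycolysis is named in the study's title. Of 10 glycolytic genes 4 were higher and 6 lower in cKO, with a median of −0.20 and none without overlap. Without flox replicate 1, 2 were higher and 8 lower, with a median of −0.21. Ldha, of lactate dehydrogenase, had 86.3, 170.5, 213.8 and 174.1 CPM in cKO against 19.9, 208.5, 176.7 and 157.4 CPM in flox. The groups overlapped, with a log2 fold change of 0.20 ± 0.52 (SE) that was −0.17 without flox replicate 1. Pkm, of pyruvate kinase, was at 0.17 ± 0.37 (SE) and −0.08 without that library. Gapdh was at −0.36 ± 0.57 (SE).

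Of 12 mitochondrially encoded genes 11 were lower in cKO, with a median of −0.28, and −0.08 without flox replicate 1. mt-Co1, a core subunit of cytochrome oxidase, had 2239, 1978, 1409 and 2009 CPM in cKO against 3373, 3396, 1618 and 2619 CPM in flox. The groups overlapped through flox replicate 3, and the log2 fold change was −0.53 ± 0.20 (SE; adjusted p = 0.839). Nuclear genes of the respiratory chain were 21 higher and 41 lower of 62 (median −0.14), and those of the citric acid cycle and fatty acid oxidation 8 and 10 of 18 (median −0.06). Tubule cells are rich in these transcripts. Proximal tubule genes were 5 higher and 9 lower of 14, with a median of −0.23 that turned to 0.13 without flox replicate 1, and all 8 distal nephron genes were lower (median −0.36, and 6 of 8 lower without that library). The distal list summed to 1078 to 2552 CPM in cKO and 1914 to 3356 CPM in flox. With the mean log2 CPM of the proximal tubule list as a covariate, edgeR called 0 of 13898 genes. The part of tubule content in the mitochondrial values themselves was not tested.

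Haemoglobin genes were decided by 1 library. Hbb-bs, a beta globin, had 97.5, 421.3, 261.7 and 130.6 CPM in cKO, against 3434, 432.5, 250.6 and 346.5 CPM in flox. Flox replicate 1 was far above the rest, and the log2 fold change was −2.29 ± 0.88 (SE) with it and −0.59 ± 0.67 without it. All 5 erythrocyte genes were lower in cKO, with a median of −2.0, or −0.59 without flox replicate 1.

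Genes of antigen presentation were 4 higher and 4 lower of 8. B2m, the light chain of class I molecules, was at −0.85 ± 0.38 and H2-D1, a heavy chain, at −0.66 ± 0.33, while the chaperone Tapbp was at 0.60 ± 0.38 (SE). Complement genes were 2 higher and 5 lower of 7 (median −0.05, and −0.18 without flox replicate 1). Genes of the TNF and NF-kappaB response were 3 higher and 4 lower of 7 (median −0.01, and −0.21 without that library). Immediate early genes were 7 higher and 1 lower of 8, with a median of 0.40, and 5 and 3 without flox replicate 1 (median 0.19), in which Egr1 stood at 4.35 CPM.

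Chaperone genes were 9 higher and 10 lower of 19. Hsp90b1, the endoplasmic reticulum chaperone GRP94, had 474.9, 578.3, 387.1 and 630.1 CPM in cKO, against 136.4, 233.4, 490.7 and 170.1 CPM in flox. The groups overlapped through flox replicate 3, and the log2 fold change was 1.01 ± 0.40 (SE; adjusted p = 0.839). P4hb, the protein disulfide isomerase, was without overlap at 0.44 ± 0.34 (SE). Glutathione and Nrf2 genes were 4 higher and 8 lower of 12 (median −0.38), with Prdx1, a peroxiredoxin, at −0.59 ± 0.33 (SE). Ribosomal protein genes were 30 higher and 24 lower of 54 (median 0.04), and Rpl10, at −1.09 ± 0.53 (SE), was the member without overlap. The entry Rpl10-ps3, outside the list, had a mean of 866.1 CPM against 173.3 for Rpl10. It was also without overlap, at only −0.17 ± 0.27 (SE). How reads were divided between these entries is uncertain.

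Whether the day 11 differences between genotypes departed from those of the other stages was tested directly. Against PBS edgeR called 0 of 13898 genes (964 at an unadjusted p under 0.05, 6.94%, and 2.12% of the genes at 50 CPM or more), and against day 4 also 0 (910, 6.55%, and 2.72% of those genes). DESeq2 called 951 and 794, and voom 0 and 1. Between the genotypes at the other stages edgeR called 0 genes under PBS (837 unadjusted, 6.02%, and 2.32% at 50 CPM or more) and 0 at day 4 (1031 unadjusted, 7.42%, and 3.33% at 50 CPM or more). Among the genes described here, the difference from PBS was 2.26 ± 0.85 for Stk40, 1.83 ± 0.70 for Phf5a and −2.51 ± 1.04 for Gstt2 (SE, adjusted p = 0.614, 0.614 and 0.651). These genes were named for their day 11 values, which also enter this difference, so a wide value is partly built in. Other named genes were wider, such as Ttc36 (−3.59 ± 1.57) and Pygb (2.76 ± 1.19), or narrower, such as Dstyk (0.46 ± 0.86, SE).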

How the data were processed

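The authors deposited 1 table per library with an estimated count of reads for each gene, unscaled, per the file headers. The submitters' processing notes list the mm10 build with Picard, DRAGEN, fastp and FastQC, and whether strand was used or duplicates were removed is not given in the sources read, so overlapping genes and near-identical copies (the haemoglobin and ribosomal protein genes, renin) are uncertain. Symbols came from GENCODE M21 (GRCm38) for 35513 of 35598 genes.

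The rounded counts entered edgeR 4.0.16 (R 4.3.3), with the filterByExpr minimum count at 10, TMM factors of 0.751 to 1.12, the robust quasi-likelihood F test and all 21 libraries in 1 model of 6 group means with 15 residual degrees of freedom, contrast cKO minus flox at day 11. A call needed an adjusted p (Benjamini-Hochberg) under 0.05. The common biological coefficient of variation was 1.66. CPM values are scaled by TMM-adjusted library size. Single values per library were compared by exact permutation. Alternatives used DESeq2 1.42.0, limma 3.58.1 (voom with quality weights), other filters and factors, and left-out libraries. Further ones added a replicate block or the mean log2 CPM of the proximal tubule list to the model. The genotype contrasts under PBS and at day 4 were added after the day 11 values were seen.

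The comparison, the 31 gene lists and the rule for named genes were chosen with earlier results of these data known. The rule took, at 50 CPM or more, the 12 largest differences in each direction among genes whose groups do not overlap (predicted genes passed over), in each list the 3 genes of smallest p, and 14 genes always, among them Rapgef3, Nipal1 and Prm1. Other genes named as members of a list were picked after their values were seen. Each library is 1 mouse. No pair of libraries was identical (0). Figures were drawn with matplotlib 3.10.9.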

Additional observations from a re-analysis of the deposited data

Results flagged for a closer look

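Of 310 groups of 4 libraries (a gene, list or share in cKO or flox at day 11), 23 held a library whose gap to its nearest neighbour was past Dixon's critical share of the group's range. Chance flags about 1 in 20 groups. In cKO replicate 3, the smallest library, Cabin1 was at 171.3 and Tapbp at 503.8 CPM, above the others, and Timm13 at 11.6, Akirin1 at 3.58 and Tubb2a at 5.60 CPM, below them. In cKO replicate 2, Apoe was at 399.5 CPM, the neutrophil list at a summed 134.0 CPM and the TNF and NF-kappaB list at a summed 1522 CPM. In cKO replicate 4, C1qa was at 59.3 CPM, and in cKO replicate 1 Podxl was at 2040.0 CPM, against 704.4 to 866.0 in the other 3.

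In flox replicate 1, Ren1 was low at 620.1 CPM. In the same library Hbb-bs was high at 3434 CPM, Hbb-bt at 922.7, Hba-a2 at 8444, Gstt2 at 174.6, Bmpr2 at 329.6 and Hspd1 at 233.8 CPM. Its haemoglobin share was 1.53% and its erythrocyte list summed to 15810 CPM. In flox replicate 3, Ltbp4 was high at 156.3 CPM and the TGF-beta list at a summed 1669 CPM, and the nuclear-encoded respiratory chain list was low at 8848 CPM. In flox replicate 4, Col4a1 was at 1167 CPM, against 740.0 to 777.0 in the other 3.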

How the results depend on the processing

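The count of called genes, 0, became 495 with DESeq2, 11 with voom, 1 without a low-count filter (Nipal1), 1 with only the 8 day 11 libraries (Nipal1) and 1 without flox replicate 1 and cKO replicate 3 together (Ren1). For Ren1 that pair held the lowest flox and the highest cKO value of day 11. Leaving out 1 library gave 0 to 1 (Klk1, without flox replicate 3). DESeq2 called 9 genes at 50 CPM or more: Nipal1, Stk40, Gstt2, Tsc22d3, Phf5a, Klk1, Sez6 and a pair of predicted genes. The groups overlapped for Klk1, Sez6 and the predicted pair. Sez6 had 5453 CPM in cKO replicate 4, against 127.2, 439.7 and 1162 CPM in the other cKO libraries. The predicted pair were likewise highest in cKO replicate 4, at 9819 and 10090 CPM. Voom called 3 at 50 CPM or more, mt-Nd1 (−1.25), Gpx3 (0.47) and Tpm1 (0.61), whose groups overlapped. The differences from PBS and from day 4, 0 each, became 951 and 794 with DESeq2, and voom gave 1 for day 4. The 106 genes without overlap became 167 to 264 with 1 library left out, 312 without that pair, 213 at a minimum of 20 CPM and 41 at 100 CPM. Fewer libraries make separation easier, and the minimum sets how many genes are counted. The difference in detected genes ran from −624.7 to 398.3.

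Of 119 gene results 104 kept their sign in all 19 settings. Most of these genes were named for separated groups or a small p in the same libraries, which favours a kept sign. The share over all genes is not given, so the number is no measure of robustness. The sign turned with 1 library left out for Rapgef3 (−0.37 to 0.17), Rapgef4 (−0.46 to 0.18), Synpo (−0.42 to 0.04), Ncam1 (−0.10 to 0.63), Npnt (−0.05 to 0.27), C1qa (−1.08 to 0.45), Hk1 (−0.66 to 0.05), Mki67 (−1.39 to 0.04), Tubb4b (−0.34 to 0.02), Hspd1 (−0.59 to 0.01), Pkm (−0.08 to 0.39) and Ldha (−0.17 to 0.45). Without the pair it turned for Ass1 (0.12), Npnt (−0.04), Hspd1 (0.13), Sod2 (0.04), Ldha (−0.34) and Pkm (−0.16), and under voom for Npnt (−0.04), Col1a1 (−0.12), Mki67 (0.44) and C1qa (2.16). The cause was not tested. Replicate numbers did not pair the libraries: deviations of same-numbered libraries correlated at −0.037 to 0.049. With a replicate block 0 genes were called (351 at an unadjusted p under 0.05, against 815), and Mki67 turned to 0.12. With 4 mice a group, most differences under 2-fold could not be resolved.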
